A study of Mus musculus with 29 samples.

Results

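The genes described are the kinases of the replication checkpoint and the proteins that feed them or hold the fork: Atr, Atrip, Atm, Chek1, Chek2, Clspn, Timeless, Tipin, Topbp1 and Hus1. They were taken by symbol from the deposited count table, and all 10 of 10 symbols were found among its 24448 gene rows. The libraries are 9 single control embryos and 8 single embryos exposed to hydroxyurea (HU), all of strain BDF1, plus 12 single BDF1 cumulus cells, the somatic cells that surround the oocyte. Both embryo groups share the same construction: a cumulus cell nucleus was injected into an enucleated MII oocyte, and the oocyte was activated for 6 h in KSOM with 10 mM strontium, 5 ug/ml CB and 2 mM EGTA. Control embryos were then kept without HU, and HU embryos were kept in 10 uM HU, which was exchanged for HU-free medium after 24 h. All embryos were collected as 2-cell embryos 28 h after activation, so transcripts may have been read after HU was removed, and replication itself was not measured. No animal, day or culture is named in the labels, and each p-value therefore rests on embryo-to-embryo spread alone, which may be partly technical.

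The checkpoint works as a relay at stalled replication forks. Single-stranded DNA coated by RPA recruits the kinase ATR through its partner ATRIP. The 9-1-1 clamp, of which HUS1 is a subunit, brings in TOPBP1, which switches ATR on. ATR then phosphorylates CHK1 (Chek1) with the help of the adaptor claspin (Clspn), while TIMELESS and TIPIN form the fork protection complex that travels with the replisome. ATM and CHK2 (Chek2) form the parallel relay for double-strand breaks. HU inhibits ribonucleotide reductase, which starves forks of nucleotides. The oocyte stores RNA and protein for the first divisions, and the kinases are switched on by phosphorylation, so RNA levels need not follow their activity.

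Of the 10 genes, 6 lie on chromosome 9 (Atr, Atrip, Atm, Chek1, Tipin and Topbp1), which holds 5.61% of the 23376 genes of the table that could be placed on GRCm38. The others are Chek2 on chromosome 5, Clspn on chromosome 4, Timeless on chromosome 10 and Hus1 on chromosome 11. Promoter sequences (250 bases before to 50 bases after the RefSeq start site, GRCm38.p6) were at hand for 9 of the 10. Those of 4 members are shown because the results turn on them: Chek1 and Chek2 varied in opposite directions between embryos on the TMM scale though not on the ERCC scale, Clspn and Chek1 were the lowest against embryos in cumulus cells, and Atr had the largest difference between HU and control embryos. Capitals mark the words searched on both strands: the E2F core (GCGGGAA or GCGCGAA), the NF-Y CCAAT box (CCAAT) and the CHR element (TTTGAA), none of which overlap here.
Chek1, chr9:36726609-36726908, strand minus: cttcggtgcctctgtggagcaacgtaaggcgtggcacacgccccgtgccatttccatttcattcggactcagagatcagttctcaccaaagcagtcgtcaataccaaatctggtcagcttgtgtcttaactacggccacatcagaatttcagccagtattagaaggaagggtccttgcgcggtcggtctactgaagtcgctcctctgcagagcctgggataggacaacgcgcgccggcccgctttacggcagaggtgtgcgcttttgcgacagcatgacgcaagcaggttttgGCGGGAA
Chek2, chr5:110839733-110840032, strand plus: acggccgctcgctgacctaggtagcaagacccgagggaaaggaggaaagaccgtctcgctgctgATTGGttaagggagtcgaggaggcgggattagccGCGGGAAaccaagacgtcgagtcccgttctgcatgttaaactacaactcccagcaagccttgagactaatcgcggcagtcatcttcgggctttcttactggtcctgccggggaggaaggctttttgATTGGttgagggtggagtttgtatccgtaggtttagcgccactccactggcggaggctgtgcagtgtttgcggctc
Clspn, chr4:126556730-126557029, strand plus: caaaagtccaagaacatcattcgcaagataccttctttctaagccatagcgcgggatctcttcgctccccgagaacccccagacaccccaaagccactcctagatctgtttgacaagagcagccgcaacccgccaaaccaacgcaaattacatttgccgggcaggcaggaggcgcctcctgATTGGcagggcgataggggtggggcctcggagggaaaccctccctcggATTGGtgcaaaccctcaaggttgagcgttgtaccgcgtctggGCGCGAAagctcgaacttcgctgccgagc
Atr, chr9:95857347-95857646, strand plus: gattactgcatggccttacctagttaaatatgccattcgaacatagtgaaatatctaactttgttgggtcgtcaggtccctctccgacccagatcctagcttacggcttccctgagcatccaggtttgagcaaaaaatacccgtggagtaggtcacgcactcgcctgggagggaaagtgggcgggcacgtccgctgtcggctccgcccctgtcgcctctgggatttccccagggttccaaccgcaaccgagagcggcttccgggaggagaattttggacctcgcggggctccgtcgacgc

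E2F factors drive genes of S phase, NF-Y and CHR elements are common in genes of G2 and mitosis, and the words were chosen after the promoters had been seen. An E2F core stood in 5 of the 9 member promoters (Atm, Chek1, Chek2, Clspn and Topbp1), against 6.06% of 27025 promoters of the same length and 11.7% of the 8827 that belong to tested genes. In Chek1 it began 43 bases after the RefSeq start site, in Clspn 21 bases after it, and in Chek2 at -152. The Timeless and Chek1 windows lie inside the genes as placed by GENCODE M21, so they may miss other start sites. Timeless starts there at 128232065, and its window begins at 128237816. Chek1, on the minus strand, starts at 36727065, and its window reaches only to 36726908. A CCAAT box stood in 4 of 9 (Atrip, Atm, Chek2 and Clspn), against 37.9% of all promoters and 39.8% of those of tested genes. A CHR word stood only in Hus1 among these 9, against 18.1% of all promoters and 11.7% of those of tested genes. The Atr promoter held none of these words. Such matches are letters in a window and do not show binding.

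Libraries held 1801261 to 3472116 gene counts in control embryos, 2442541 to 3757492 in HU embryos and 317195 to 4051494 in cumulus cells, with 13875 to 15132, 12887 to 15421 and 4054 to 8629 detected genes. Smart-seq2 counts are reads and not molecules, so intervals cover counting error only. Summed oocyte and early embryo markers ranged from 3718 to 5133 CPM (counts relative to the library total) in controls and from 2644 to 5810 CPM in HU embryos, with 9 of 10 markers present and Oog1 at 0. In cumulus cells they ranged from 0.0 to 3.56 CPM. Cumulus and granulosa markers reached 30.0 and 29.3 CPM at most in control and HU embryos, and had a median of 269 CPM in the cells, where Inha was counted in 10 of 12, Foxl2 in 7 of 12 and Cyp19a1 in none, and 1 cell had no count of any of the 10 markers. Immune markers reached 32.9, 24.5 and 157 CPM at most in control embryos, HU embryos and single cumulus cells, endothelial markers 60.3, 67.7 and 20.1 CPM, theca and stroma markers 13.3, 11.4 and 3.56 CPM, and erythroid markers 3.30, 3.46 and 5.92 CPM. The part of these markers in the results below was not tested.

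Per length of transcript and by group mean, the fork protection subunit Tipin and the effector kinase Chek1 were the most abundant of the genes in embryos, and the apical kinase Atr the least. FPKM values (counts scaled by gene length and library total) are used here because they compare different genes. In control embryos Tipin ranged from 137 to 264 FPKM with a median of 187, and Chek1 from 70.0 to 122 with a median of 93.0. Chek2, the effector of the break relay, ranged from 21.8 to 61.6 FPKM (median 37.8). Tipin stood at the 98.1st percentile of the 11476 genes tested, Chek1 at the 95.2nd and Chek2 at the 84.2nd.

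The clamp-side activator Topbp1 averaged 18.2 ± 6.91 FPKM (SD, n = 9), Timeless 14.7 ± 5.67, the adaptor Clspn 10.5 ± 4.90 and the clamp subunit Hus1 6.77 ± 1.91. The break kinase Atm averaged 6.57 ± 2.77 FPKM and the partner Atrip 4.29 ± 2.60. Atr averaged 0.988 ± 0.590 FPKM, at the 2.96th percentile. Timeless stood below its partner Tipin by a mean log2 ratio of -3.76 in controls. In the order Tipin, Chek1, Chek2, Topbp1, each of the 3 steps exceeded the SD of its paired log2 difference and held in 9 of 9 control embryos. From Topbp1 through Timeless, Clspn, Hus1, Atm and Atrip to Atr, no step between neighbours exceeded that SD. HU embryos kept the same order by mean FPKM, except that Clspn (12.8 ± 3.82, SD, n = 8) stood above Timeless (12.4 ± 5.85), a step within the spread. In HU embryos the differences from Topbp1 to Timeless and from Clspn to Hus1 exceeded their SD. These genes are neighbours in the control order only. The HU steps from Topbp1 to Clspn and from Timeless to Hus1 were not computed. The length behind the FPKM of Atr was 8074 bases, against 23629 bases of merged exons in GENCODE M21. For Atrip these were 2572 and 7152 bases, for Tipin 1211 and 1869, and for Topbp1 5111 and 11226. For Atm the length behind FPKM was the longer, 11964 against 10338. Levels per length, and their order, therefore depend on the gene model.

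**Figure D1:**
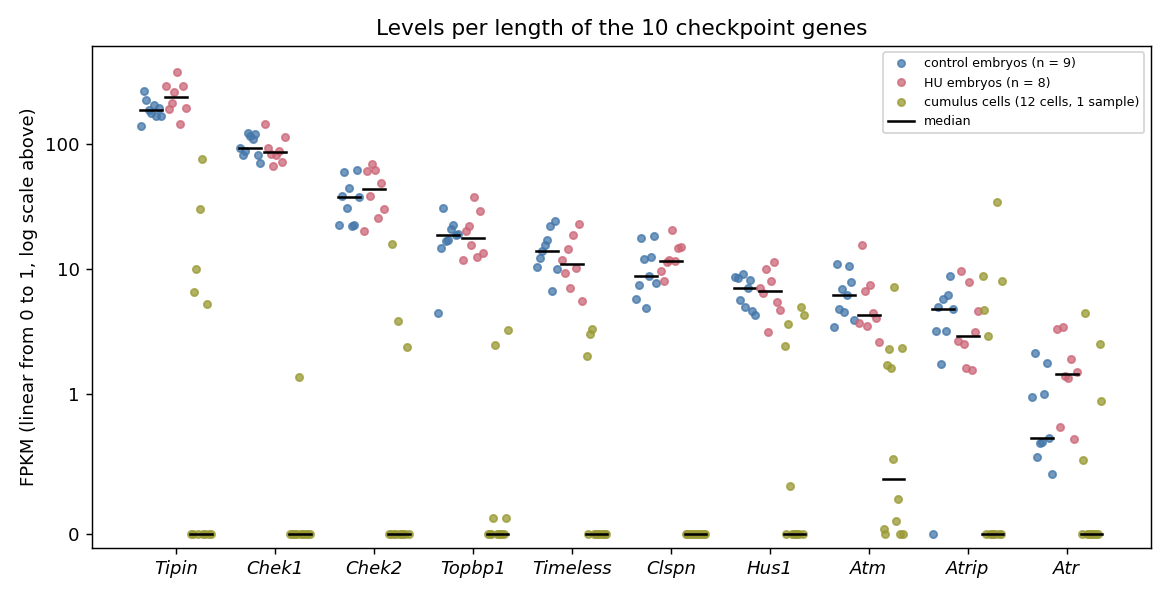
FPKM of the 10 genes in each of 9 control embryos, 8 HU embryos and 12 cumulus cells; the vertical axis is linear from 0 to 1 and logarithmic above, and black lines are medians. By median, Tipin and Chek1 lead in both embryo groups, Atr is lowest, and the cumulus cells are at 0 for every gene except Atm. In single HU embryos Chek1 was above Chek2 in 7 of 8 and Atrip above Atr in 5 of 8.

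Comparing HU embryos with controls addresses whether exposure to a replication inhibitor is followed by a change in the RNA of the replication checkpoint. Atr and Tipin had the largest differences relative to their error, both toward HU, and neither passed. All 10 genes passed the filter on low counts and 0 of 10 passed the edgeR quasi-likelihood test at an adjusted p under 0.05, where 0.0% of the 11476 genes tested passed. At an unadjusted p under 0.05 there was 1 of 10 (Atr), against 5.85% of all genes tested. The median log2 fold change of the 10 was 0.12 and that of all genes 0.04, with 6 above and 4 below 0. Each library is a whole embryo, so a lower level cannot be told apart from less RNA in 1 of its cells. Embryo values below are CPM with TMM scaling (an edgeR scaling for library composition) unless another scale is named. The comparison with cumulus cells uses CPM by library total instead.

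Atr, the apical kinase, ranged from 4.23 to 17.01 CPM in control embryos (median 5.00) and from 6.06 to 27.6 CPM in HU embryos (median 11.8). All 8 HU embryos lay above the control median, 5 of 9 controls lay below every HU embryo, and the groups overlapped. The log2 fold change was 0.89 ± 0.42 (SE), a fold of 1.86, with a 95% interval of -0.001 to 1.79. The edgeR unadjusted p was 0.0445 and the edgeR adjusted p 0.83. The interval uses fewer degrees of freedom than the test, so it includes 0 although the unadjusted p is under 0.05. These levels rest on few counts, 8 to 43 in control libraries and 19 to 89 in HU libraries. Its highest embryos were HU 1 and HU 3. Over 26 alternatives, which include leaving out each embryo in turn, the fold change stayed above 0 and the unadjusted p was under 0.05 in 9, with a range of 0.0174 to 0.417. The antisense gene 1700065D16Rik, which overlaps Atr, had a mean of 0.444 counts in controls and 1.75 in HU embryos. Atrip, which tethers ATR to RPA, ranged from 0.0 to 20.2 CPM in controls (median 13.1) and from 4.29 to 24.2 CPM in HU (median 8.25). Only 2 of 8 HU embryos exceeded the control median, but HU 2 was above every control. Its log2 fold change of -0.02 ± 0.55 had an interval of -1.20 to 1.16, which holds both a doubling and a halving of Atrip. It changed sign with ERCC scaling, and it overlaps Trex1 on the same strand, which had 9.0 counts on average in controls and 5.5 in HU embryos.

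Topbp1, which activates ATR, ranged from 24.2 to 160 CPM in controls (median 84.4) and from 62.3 to 179 CPM in HU embryos (median 92.4). Control 1 was the single low embryo, and HU 5 and HU 7 were above every control. The log2 fold change was 0.17 ± 0.29, and it was 0.027 without control 1, 0.016 without HU 5 and 0.012 without HU 7. Hus1, a subunit of the sliding clamp, ranged from 20.8 to 46.7 CPM in controls (median 37.4) and from 16.98 to 62.1 CPM in HU (median 34.5), with the HU range wider on both sides. Its log2 fold change was 0.08 ± 0.26, with an interval of -0.48 to 0.64.

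Chek1, the effector kinase of the ATR relay, ranged from 247 to 394 CPM in controls (median 336) and from 242 to 501 CPM in HU embryos (median 295). One embryo, HU 1, stood above every control, and 2 of 8 exceeded the control median. The interval of the log2 fold change was -0.39 to 0.29, the narrowest of the 10, so a doubling or halving of Chek1 RNA lies outside it. The fitted direction turned above 0 with ERCC scaling. Clspn, the adaptor that presents CHK1 to ATR, ranged from 22.5 to 89.2 CPM in controls (median 46.9) and from 39.4 to 95.1 CPM in HU (median 62.4). Here 7 of 8 HU embryos exceeded the control median, and 3 controls lay below every HU embryo. Its log2 fold change was 0.32 ± 0.26 (edgeR adjusted p 0.877).

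Tipin ranged from 176 to 313 CPM in controls (median 215) and from 187 to 420 CPM in HU embryos (median 290). Of the HU embryos, 7 of 8 exceeded the control median and 4 of 8 lay above every control. The log2 fold change was 0.37 ± 0.18, a fold of 1.30, with an interval of -0.02 to 0.77, an unadjusted p of 0.0536 and an edgeR adjusted p of 0.835. Timeless, its partner in the fork protection complex, ranged from 28.0 to 104 CPM in controls (median 64.8) and from 23.4 to 119 CPM in HU (median 52.5). Only 2 of 8 HU embryos exceeded the control median, and the log2 fold change was -0.18 ± 0.29. In the break relay, Atm ranged from 43.5 to 128 CPM in controls (median 77.5) and from 29.5 to 180 CPM in HU. HU 2 was far above the rest at 180 CPM, and the next HU embryo was at 84.4 CPM. The log2 fold change was -0.10 ± 0.30, above 0 with ERCC scaling. Chek2 ranged from 46.7 to 136 CPM in controls (median 84.2) and from 46.5 to 166 CPM in HU (median 105). The groups overlapped over nearly their whole range, and the log2 fold change was 0.27 ± 0.27.

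**Figure D2:**
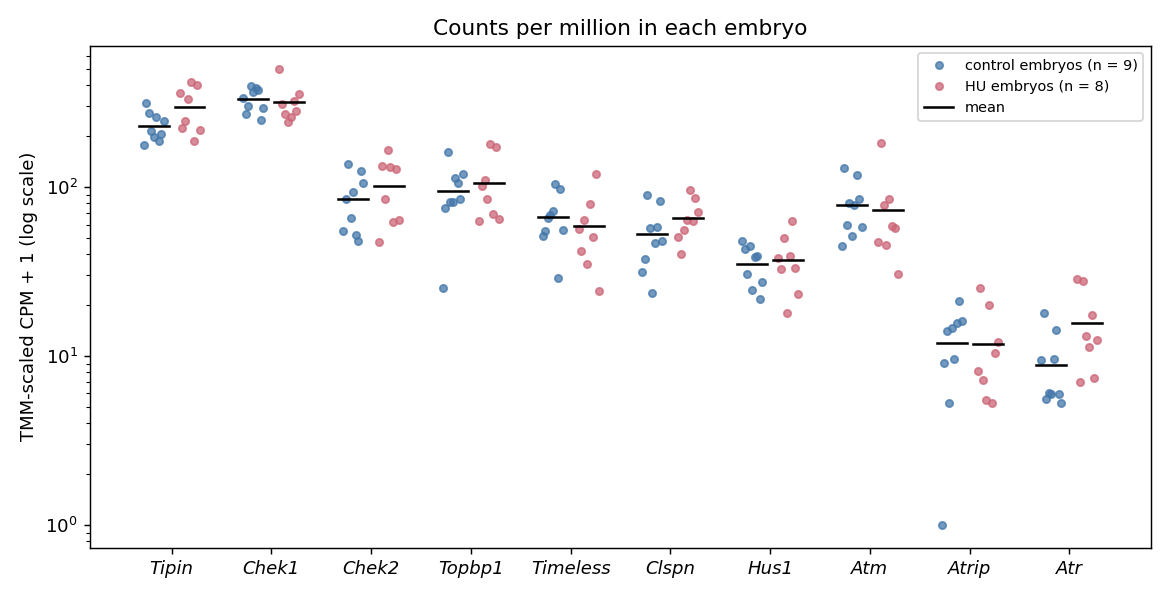
TMM-scaled CPM plus 1 on a log axis for each gene in 9 control and 8 HU embryos, with black lines at the means. The groups overlap for every gene; the single point at 1 is the control embryo without an Atrip count.

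**Figure D3:**
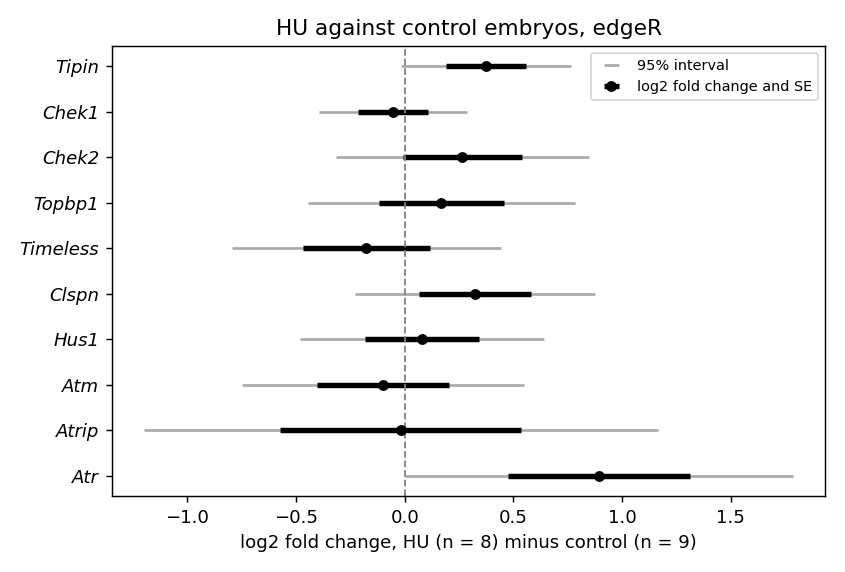
Log2 fold change of each gene, HU minus control, with its SE (black) and 95% interval (grey). All 10 intervals include 0, but they use fewer degrees of freedom than the edgeR test, whose unadjusted p for Atr was 0.0445. The Atr interval starts at -0.001 and that of Chek1 is the narrowest.

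Partner genes were set against each other within the same embryo, as log2 ratios of FPKM with 0.1 added, since such a ratio depends little on how the library is scaled. For each of 5 ratios all 24310 splits of the embryos were enumerated in an exact permutation test, 2-sided and adjusted over the 5. Atm against Atr had a mean log2 ratio of 2.67 ± 0.50 among controls (SD, n = 9) and 1.66 ± 1.27 among HU embryos (SD, n = 8). HU minus control was -1.01 with an SE of 0.48, and the exact permutation p of 0.0447 became 0.125 after adjustment. A single HU embryo of 8 exceeded the median of the controls. That embryo was HU 2, at 4.16, above the highest control at 3.33. Without HU 2 the difference was -1.37 (exact permutation p = 0.00157, adjusted p = 0.00787), so the call depends on this embryo. With 1 FPKM added in place of 0.1 the difference over all embryos was -0.65 (exact permutation p = 0.0772, adjusted p = 0.193), and Atr itself lies near 1 FPKM. With embryos blocked by replicate number it was -0.98 (exact sign-flip permutation p = 0.102, adjusted p = 0.378).

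Timeless against Tipin had a mean log2 ratio of -3.76 ± 0.55 among controls and -4.35 ± 0.58 among HU embryos. HU minus control was -0.58 with an SE of 0.27, and the exact permutation p of 0.0501 became 0.125 after adjustment. Again 1 HU embryo of 8 exceeded the median of the controls. The ratios of Chek1 to Clspn (-0.46 ± 0.33, exact permutation adjusted p = 0.312), Chek1 to Chek2 (-0.31 ± 0.42, exact permutation adjusted p = 0.579) and Atr to Atrip (0.50 ± 0.89, exact permutation adjusted p = 0.604) differed less relative to their error. Without control 1, which had no Atrip count, the Atr to Atrip difference was 1.13 (exact permutation p = 0.103, adjusted p = 0.172). None of the 5 passed with all embryos in the test.

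The wider pathway was read from 42 listed genes, all found in the table, of which 41 were tested and 0 passed in either direction with edgeR. At an unadjusted p under 0.05 there were 2 of 41 (the mediator Mdc1 and the phosphatase gene Cdc25b), where 5.85% of all genes tested were, 23 had a fold change above 0 and 18 below, and the median was 0.04, as for all genes. The log2 fold change was 0.572 ± 0.267 (SE) for Mdc1 and -0.615 ± 0.267 for Cdc25b, each with an edgeR adjusted p of 0.829. Of the other clamp and loader genes, 0 of 5 passed: the clamp loader Rad17 stood at 101 ± 30.1 CPM with HU and 98.2 ± 27.1 CPM without, and the clamp subunit Rad9a at 66.9 ± 28.6 and 56.3 ± 15.3 CPM (mean ± SD, HU first here and below). Hus1b, a paralog of Hus1, fell below the filter. Of RPA and the second ATR activator Etaa1, 0 of 4 passed, with Rpa2 at 212 ± 126 and 213 ± 93.0 CPM and Rpa3 at 32.6 ± 11.8 and 28.6 ± 5.44 CPM. Break sensors and mediators (0 of 8) included Rad50 at 80.1 ± 23.1 and 82.7 ± 13.1 CPM and H2afx at 33.1 ± 21.3 and 31.3 ± 14.5 CPM. Fork remodellers (0 of 8) included the helicase gene Fbxo18, also called Fbh1, at 128 ± 29.4 and 165 ± 45.4 CPM, where 0 of 8 HU embryos exceeded the median control (log2 fold change -0.37 ± 0.20, edgeR adjusted p 0.835), and the replisome gene Donson at 93.9 ± 21.8 and 94.7 ± 21.0 CPM.

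The cell cycle genes that the relay acts on were 0 of 8 as well. The egg kinase gene Wee2, which inhibits CDK1, stood at 630 FPKM in controls, the highest level per length among the 42 listed genes. The log2 fold change of Wee2 was -0.25 ± 0.15 and that of Cdk1 0.44 ± 0.38. Among genes that stabilise the kinases or shut them off (0 of 8), Usp7, whose product deubiquitinates claspin, stood at 214 ± 60.4 and 210 ± 36.3 CPM, and Tti1, a chaperone cofactor of ATM and ATR, at 56.9 ± 15.4 and 71.1 ± 17.3 CPM.

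Between embryos of the same group, Chek1 and Chek2 varied in opposite directions in TMM-scaled CPM, but not in ERCC-scaled counts. The 6 embryos with the most Chek1 (control 4, control 5, control 6, control 7, HU 1 and HU 8) had Chek2 between 46.5 and 92.5 CPM. HU 4 had the lowest Chek1, 242 CPM, and the highest Chek2, 166 CPM, and HU 1 the highest Chek1, 501 CPM, and the lowest Chek2, 46.5 CPM. Over 17 embryos, on log2(CPM + 1) centred by group, Pearson's r was -0.784 (permutation p = 0.00014, adjusted p = 0.0063) and Spearman's rho -0.762 (permutation p = 0.0005, adjusted p = 0.0225). Adjustment was over the 45 pairs of members, and this was the 1 pair that passed. Without the 2 embryos farthest from the Chek1 median, r was -0.706. Within control embryos rho was -0.667 (permutation p = 0.0593, n = 9) and within HU embryos -0.81 (permutation p = 0.0209, n = 8).

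The relation depended on the scaling. In CPM by library size rho was -0.608 (permutation p = 0.011), whereas in counts scaled by the ERCC spike-in RNAs it was 0.0049 (permutation p = 0.989). Over all 45 pairs rho ranged from -0.762 to 0.569 with a median of 0.105, and 27 were above 0. The highest rho was that of Atrip with Topbp1 (permutation adjusted p = 0.222). Its r was 0.728 (permutation p = 0.00255, adjusted p = 0.0574), and 0.492 without the 2 farthest embryos. Chek1 with its adaptor Clspn had a rho of -0.228 (permutation adjusted p = 0.635). The partners Timeless with Tipin and Atr with Atrip did not pass either. For Timeless with Tipin r was 0.487 (permutation p = 0.0472) and rho 0.475 (permutation p = 0.0558, adjusted p = 0.254), with r 0.351 without the 2 farthest embryos. For Atr with Atrip r was -0.344 (permutation p = 0.179) and rho -0.532 (permutation p = 0.0296, adjusted p = 0.222), with r -0.391 without them.

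**Figure D4:**
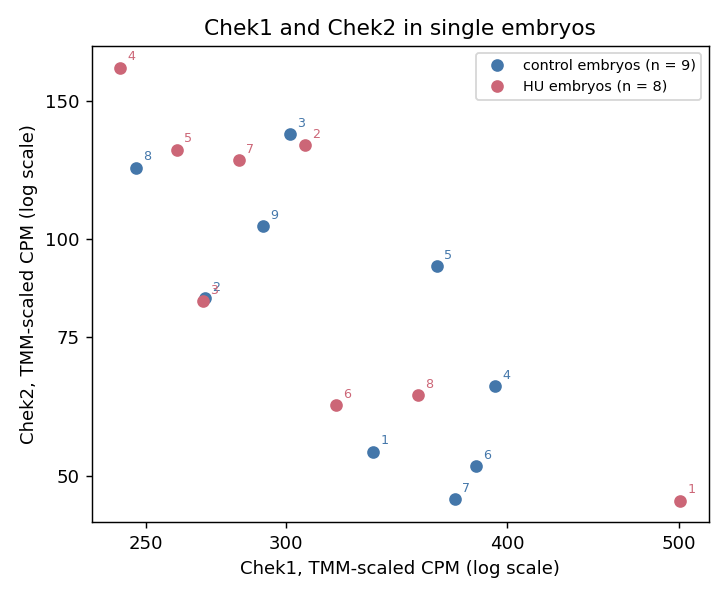
Chek1 against Chek2 in TMM-scaled CPM, both on log axes, 1 numbered point per embryo (blue control, red HU). HU 4 (242 CPM Chek1, 166 CPM Chek2) and HU 1 (501 and 46.5 CPM) mark the ends; the relation is absent with ERCC scaling (rho 0.0049).

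Chek1 was the steadiest of the genes between embryos in both groups. The coefficient of variation (CV) of Chek1 was 16.3% in controls and 26.0% in HU embryos, at the 2.52nd and 10.9th percentile of all genes tested, whose median CVs were 44.2% and 49.0%. Those genes were not matched by level, and Chek1 stood at the 95.2nd percentile of control FPKM, so they are not a like background. Tipin came next in controls (19.9%) and Clspn in HU embryos (28.2%, against 42.9% in controls). Atr and Atrip varied most in controls (both 57.2%), and Atrip (67.4%) and Atm (65.5%) in HU embryos. Whether CVs differ between the groups was not tested. Counting error alone gives a CV of 21.9% for Atr in controls and 3.40% for Chek1, so the counting part of the spread is larger for Atr. By the likeness of its values over the 17 embryos, centred by group, the genes nearest to Tipin among 8619 at 10 CPM or more were Ctnnb1 (Spearman's rho 0.843), Arcn1 (0.833) and Hdac1 (0.831). These 3 were picked as the highest of many, so their rho carries no test.

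Cumulus cells, the type that supplied the donor nuclei, had lower levels of most of these genes than embryos did. Their 12 libraries name no animal and count as 1 sample, so counts were summed and no test was made. CPM here is by library total in cells and embryos alike, without TMM scaling, so library composition is not corrected for. Of the 10 genes, 8 were at least 4-fold lower than in control embryos on log2(CPM + 1), where 31.8% of 15231 genes at 1 CPM or more were. The median log2 ratio was -3.72 for the 10 genes and -1.15 for all genes. The 15231 genes were at 1 CPM or more in cells or in control embryos and were not matched to the 10 by level. With 1 CPM added, genes near 1 CPM in control embryos cannot come out 4-fold lower. The share and median of all genes are therefore not a like background. Clspn had 0 counts in 12 cells (exact Poisson upper limit 0.153 CPM). With a floor of 3 counts over all cells, or 0.125 CPM, it was 421-fold lower than the control mean of 52.5 CPM. The Poisson limit lies above that floor and would give a smaller fold. Chek1 had 19 counts, all in cell 6, or 0.790 CPM (exact Poisson interval 0.476 to 1.23) against 331 CPM in control embryos. Of the 287 genes at or above the control level of Chek1, 17.8% were seen in 1 cell or fewer, and of the 3449 at or above that of Clspn, 6.99% in none.

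Topbp1 had 1.37 CPM (0.944 to 1.93) in the summed cells against 93.2 CPM in control embryos, with counts in 4 of 12 cells. Timeless had 3.53 CPM (2.82 to 4.37) against 66.2, Tipin 15.9 CPM (14.4 to 17.6) against 230.1, Chek2 5.74 CPM (4.82 to 6.78) against 84.5, and Hus1 4.49 CPM (3.68 to 5.42) against 34.3. Atm was the most often seen, in 9 of 12 cells, at 16.4 CPM (14.8 to 18.1) against 78.6. The apical pair was not past 4-fold: Atr stood at 5.90 CPM (4.97 to 6.96) against 7.98 ± 4.76 (SD, n = 9) and Atrip at 14.1 CPM (12.6 to 15.6) against 11.04 ± 6.69.

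The highest cell held from 42.4% (Timeless) to 100% (Chek1) of each sum above 0, and counts ran from 0 to 235 per gene and cell. Cell 9 held 235 of the 338 Atrip counts, and without it the log2 ratio of Atrip went from 0.32 to -1.05. Without cell 3, which held 67.6% of the Atr and 68.1% of the Chek2 counts, the ratio of Atr went from -0.38 to -1.51 and that of Chek2 from -3.67 to -4.81. Without cell 7 Tipin went from -3.77 to -4.57 and Atm from -2.20 to -2.88, and without cell 6 Chek1 went from -7.54 to -8.38. The same 8 of 10 genes stayed past 4-fold without any 1 cell. In the wider pathway 23 of 42 genes were at least 4-fold lower and 1 at least 4-fold higher, with a median log2 ratio of -2.26. Of all 15231 genes, not matched by level, 1178 were at least 4-fold higher and 31.8% at least 4-fold lower. All 8 cell cycle targets were lower, with Wee2 at 1 count in all cells and Cdc25c at 0, and the replisome genes Wdhd1 and Donson had 0 and 1 counts. Break sensors and mediators had 2 of 8 lower, near that share of all genes, and a median of -1.20, with Trp53bp1 in 10 of 12 cells.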

How the data were processed

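Single embryos and cells were profiled by Smart-seq2, per the labels' protocols. The authors deposited raw counts per gene (24540 rows, of which 92 are ERCC spike-ins) and FPKM values for 29 libraries, and 0 deposited columns were left without a sample. FastQC, STAR 2.7.3a and R 4.0.2 with the mm10 build are named in the submitters' processing notes. The counter, annotation and strand setting were not given in the sources used here, so reads of overlapping genes cannot be told apart. The deposited FPKM of the members equalled count over library sum and length in 290 of 290 values (relative tolerance 0.001).

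ERCC rows were left out. Embryos were compared with edgeR 4.0.16 in R 4.3.3 (quasi-likelihood F test, TMM, filterByExpr, no covariate, 17 embryos), with Benjamini-Hochberg adjustment over all genes tested. SEs come from the F statistic. The 95% intervals use the t distribution with degrees of freedom from the 17 embryos and 2 groups alone. The F test uses more, so the intervals are wider than its unadjusted p-values imply. Depth is given in the report, and no 2 libraries held identical values. DESeq2 1.42.0 and limma 3.58.1 served as alternatives. The fit was tested on simulated data. Members and lists were chosen with earlier results of these data known. Named were all members, the 2 listed genes per list with the highest control FPKM where none passed, and the 3 genes most like Tipin. Mdc1, Cdc25b, Trp53bp1, Cdc25c, Wdhd1 and the correlations between members were chosen after values were seen. Promoters are from RefSeq and positions from GENCODE M21 (GRCm38, which mm10 names), both joined on gene symbol. Correlations used 100000 permutations.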

Additional observations from a re-analysis of the deposited data

Results flagged for a closer look

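Of 30 sets of embryo values examined (10 genes and 5 ratios in each group), 3 had an embryo farther from its neighbour than Dixon's 95% limit allows, and chance alone flags about 1 in 20 groups. Atm in HU embryos had its highest value in HU 2, 180 CPM, with the next embryo at 84.4 CPM. Chek1 in HU embryos had its highest value in HU 1, 501 CPM, with the next at 356 CPM. The log2 ratio of Atr to Atrip in control embryos was highest in control 1, at 3.43, with the next at -0.56. Control 1 had 0 Atrip counts, so that ratio rests on the 0.1 FPKM added.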

How the results depend on the processing

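Across edgeR with library-size or ERCC scaling, without a filter or with all 3 groups, DESeq2, limma-voom, limma on FPKM, a replicate block and leaving out each embryo, 0 members passed after adjustment. Over all genes, DESeq2 called 3 and the leave-one-out fits 0 to 1 (the 1 without HU 8). Leaving out HU 2 took the adjusted p of the Atm to Atr ratio from 0.125 to 0.00787. At an unadjusted p under 0.05 the count over all genes was 671 in the reported fit, 60 with all 3 groups and 1990 without a filter. ERCC scaling moved the median of all genes from 0.04 to 0.19, and gave Atm 0.083, Chek1 0.14 and Atrip 0.19, all below 0 before. Atrip was also above 0 with limma-voom (0.35), FPKM (0.015), the exact permutation of log2 CPM (0.12) and the replicate block (0.16). Hus1 was -0.022 with the block. Leaving out embryos, Atrip ranged from -0.30 to 0.14, Atm from -0.45 to 0.0081, Hus1 from -0.10 to 0.18, and the Atm to Atr ratio from -1.37 to -0.80. Leaving out cells, the Atrip ratio ranged from -1.05 to 0.57. The Chek1 to Chek2 rho was 0.0049 with ERCC scaling and between -0.812 and -0.703 without any 1 embryo. The cause was not tested for any of these.

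Deviations of same-numbered control and HU embryos correlated between -0.102 and 0.188, above 0.1 in 1 of 8 pairs, and 0 of 8 control embryos matched their own number best. The labels give the pairs nothing in common but the number, and whether they shared a day or animal was not tested. The replicate block called 0 genes, with 536 at an unadjusted p under 0.05. Depth limits Atr and Atrip most.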
